A study of Mus musculus with 6 samples.

Results

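Genes of heat shock proteins and molecular chaperones were compared in platelets between 2 genotypes of mice, heterozygotes for C587R in the mRNA export receptor gene Nxf1 and their wild-type littermates. The genes were chosen by symbol: protein-coding genes whose symbol begins with Hspa, Hspb, Hspd, Hspe, Hsph, Hsp90, Dnaja, Dnajb or Dnajc, or with Cct and a number, together with Tcp1 and Bag1 to Bag6. Of 90 annotated genes that fit, 66 were among the 9822 genes of the count tables, and the other 24, including Hspa1a, Hspb1 and Bag2, were not analysed here. PolyA RNA came from 3 mutant pools (Nxf1+/C587R, BalB/c background, males) and 3 wild-type pools (BalB/c background, males), 1 of each genotype in each of 3 numbered batches, taken here as the 3 preparation days that the study names. Suspensions of the same genotype were pooled if over 98% of events by flow cytometry were positive for CD41, a platelet integrin. The groups share strain background, sex and purification, the labels name no treatment or Cre for either, and the wild-type data are shared with another series.

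Chaperones help proteins fold, keep them from clumping and pass failed ones to degradation. Hsp70 proteins bind exposed stretches of a client in cycles of ATP hydrolysis. J proteins deliver clients and start hydrolysis, and exchange factors (Hsp110, Hspbp1 and some Bag proteins, such as Bag1) release the nucleotide and the client. Hsp90 takes over late folding of kinases and receptors, small heat shock proteins hold unfolded clients without ATP, and the ring-shaped CCT chaperonin folds actin and tubulin. Platelets have no nucleus, so their chaperone mRNA was inherited from the megakaryocyte or carried by the few other cells in a suspension. In bulk RNA, fewer cells of a type and less RNA per cell cannot be told apart.

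Library totals lay between 25189231 and 29421549 counts, and all 66 members had a count in every library, the lowest being 5. The same held for nearly every gene in the count tables, with 9820 to 9822 of 9822 counted in each library. Levels are CPM, counts scaled to a common library total by TMM, a method that assumes most genes unchanged. All 10 platelet markers were detected, with 4 higher and 1 (Gp9) lower by edgeR. Their summed level was 43700 to 47850 CPM in mutant pools and 33830 to 41130 CPM in wild-type pools. Erythroid markers (8 of 10 detected) summed to 31530 CPM in the mutant and 35730 CPM in the wild-type pool of day 1, against 3973 to 4566 CPM in mutant pools and 4310 to 4433 CPM in wild-type pools of the other days, so day 1 stood apart in both genotypes. Without day 1, 4 members were higher and 1 (Dnajc28) lower by edgeR. B cell markers (8 of 8 detected, 4 lower and 0 higher) summed to 248.6 to 314.0 CPM in mutant pools and 320.2 to 429.4 CPM in wild-type pools. T cell markers (6 of 7 detected, Cd3e not in the tables) summed to 15.99 to 20.06 CPM in mutant pools and 19.01 to 24.84 CPM in wild-type pools. Of 8 neutrophil markers 3 were detected (Ly6g, Elane and Mpo were not in the tables), at 11.52 to 18.62 CPM in mutant pools and 11.05 to 17.0 CPM in wild-type pools. Of 6 monocyte markers 5 were detected, at 1770 to 2084 CPM in mutant pools and 1152 to 1591 CPM in wild-type pools, nearly all from Lyz2, the only one called, while Csf1r averaged 1.48 CPM in mutant pools and 1.36 CPM in wild-type pools.

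Of the 66 members, 6 were higher and 8 lower in mutant platelets, and 52 did not pass (edgeR quasi-likelihood test over all 9822 genes, Benjamini-Hochberg adjusted p of 0.05). The higher genes were Hspb8, Bag1, Dnajb2, Dnajb14, Hsp90aa1 and Bag6. The lower genes were Dnajc30, Dnajc9, Hspa9, Dnaja1, Tcp1, Hspa8, Cct5 and Hsp90ab1. The share of members called was 21.2%, against 22.1% of all genes tested. By direction, 9.09% of members were higher and 12.1% lower, against 12.9% and 9.16% of all genes. The chaperones as a set were thus called about as often as genes in general, and their description below is one of single genes and classes. At a mean level of at least 5 CPM, a limit chosen after the values were seen, 11 of 36 members were called (30.6%, 4 higher and 7 lower) against 36.8% of all such genes (24.7% higher and 12.2% lower). Under 5 CPM 3 of 30 members were called (2 higher and 1 lower) against 10.7% of all such genes (3.85% higher and 6.84% lower).

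The median log2 fold change was -0.13 over the members and -0.04 over all genes tested. Within days 1, 2 and 3 the member medians were -0.1476, -0.001 and -0.057, against -0.0215, -0.0168 and -0.0045 over all genes. The members thus lay below all genes on days 1 and 3, most on day 1, and not on day 2. The genotypes were free of overlap for 10 members in the higher and 12 in the lower direction, 33.3% of members against 36.3% of all genes (20.4% higher and 15.9% lower). All 14 called members were free of overlap and had the same direction on all 3 days. The test that picked them used the same libraries, so this is no separate evidence. On all 3 days 18 of 66 members were higher and 26 lower, against 2956 and 3012 of 9822 genes. At an unadjusted p under 0.05 by edgeR 10 of 66 members were higher and 15 lower, against 1818 and 1402 of 9822 genes. Among all 66 members 1 (Hspb8) was called with a change of more than 2-fold, against 385 of 9822 genes, and the called Bag1, Dnajb2 and Dnajc30 changed by more than 1.5-fold. With the preparation day as a block, 15 members were higher and 16 lower, against 40.0% of all genes (22.0% higher and 18.0% lower), and all 14 calls kept their direction by edgeR. Blocked DESeq2 called 9 higher and 9 lower. Of 17 members called only with the edgeR block, blocked DESeq2 called 6 (Hsph1, Dnajb4, Dnajb9, Dnajb11, Dnajc7 and Cct8), so the others passed by edgeR alone.

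**Figure D1:**
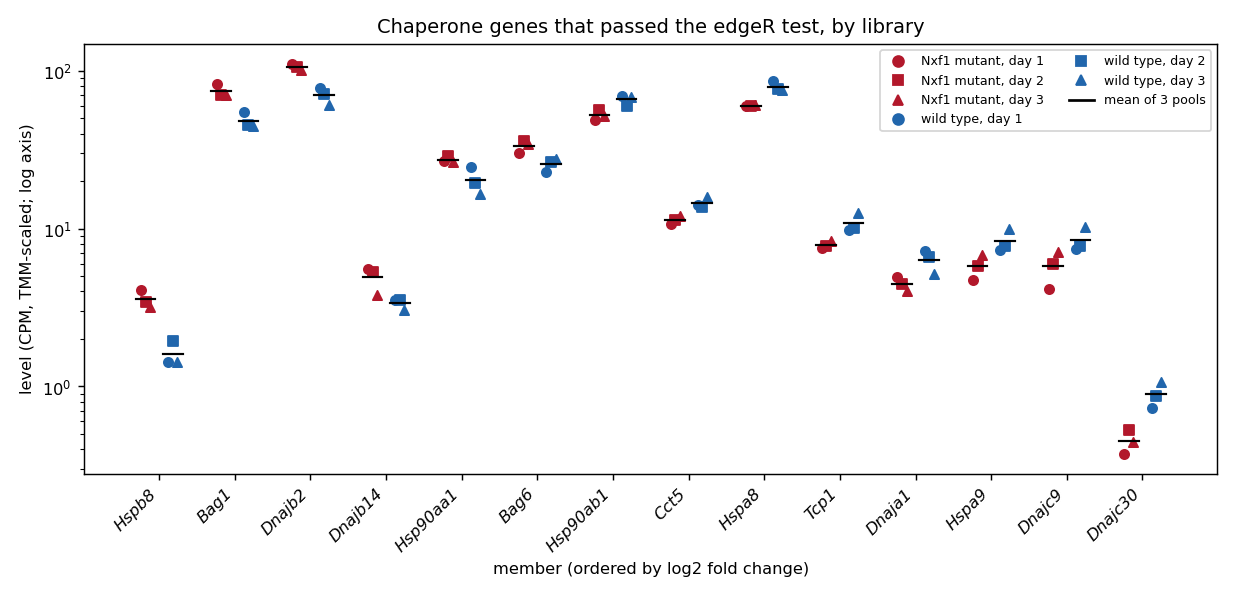
Level of the 14 called members in each library, in CPM on a log axis, with mutant pools left of wild-type pools, 1 marker shape per preparation day and a bar at the mean of 3 pools. The mutant and wild-type points do not overlap for any gene shown, and levels run from under 1 CPM in Dnajc30 to over 100 CPM in Dnajb2.

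The calls of 3 members, Hspb8, Bag1 and Dnajb2, held in each of 9 refits by edgeR, 6 without 1 library and 3 without both libraries of a day. The others depended on single libraries. Without mutant replicate 1 the call also held for Dnaja1, and the other 10 had adjusted p of 0.0501 to 0.238 by edgeR. Without mutant replicate 2 it held for Dnajc30 and Dnajc9, and 9 had adjusted p of 0.0513 to 0.226. Without mutant replicate 3 it was lost for Bag6, Dnaja1 and Hsp90ab1 (0.0525 to 0.0954). Without wild-type replicate 1 it was lost for Bag6, Dnaja1, Dnajb14, Hsp90ab1 and Hspa8 (0.0522 to 0.187), and without wild-type replicate 2 for Bag6, Dnaja1, Dnajb14 and Hsp90aa1 (0.075 to 0.12). Without wild-type replicate 3 it was lost for Cct5, Dnajb14, Dnajc30, Dnajc9, Hsp90aa1, Hspa9 and Tcp1 (0.0791 to 0.161). Without day 1 Hsp90aa1 also stayed called and 10 were lost (0.0602 to 0.319), without day 2 the other 11 were lost (0.0541 to 0.322), and without day 3 only Cct5 and Dnajc30 were lost (0.0509 and 0.143). No called member changed sign in any of these fits.

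The Hsp70 chaperones held 8 members, of which Hspa8 and Hspa9 were lower and 0 higher. Hspa8 (Entrez 15481, chromosome 9, 40801276 to 40805202, mm10) encodes Hsc70, the constitutive cytosolic Hsp70. It had 59.6, 60.3 and 60.9 CPM in the mutant pools of days 1, 2 and 3, against 86.2, 76.5 and 75.6 CPM in the wild-type pools. The mutant pools were nearly level, and each lay below all wild-type pools. The log2 fold change was -0.40 ± 0.11 (SE, n = 3 pools each, adjusted p = 0.0127 by edgeR). Its call was lost in 5 of the 9 fits, with the highest adjusted p without day 1 (0.182).

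Hspa9, which encodes mortalin, the Hsp70 of the mitochondrial matrix that also pulls proteins in through the inner membrane, had 4.73, 5.84 and 6.82 CPM in mutant pools and 7.30, 7.82 and 9.98 CPM in wild-type pools. Mutant pools were again all below wild-type pools, with a log2 fold change of -0.53 ± 0.17 (SE, edgeR adjusted p = 0.028; 0.124 without wild-type replicate 3). Hspa5, which encodes BiP, the Hsp70 of the endoplasmic reticulum (ER), stood at 18.7 ± 1.39 CPM in mutant pools and 17.5 ± 2.72 CPM in wild-type pools (SD, n = 3 each), a difference smaller than the spread within wild type (log2 fold change 0.09, adjusted p = 0.665 by edgeR). The heat-inducible Hspa1b was at 0.408 to 1.04 CPM in mutant pools and 0.416 to 1.93 CPM in wild-type pools. Its wild-type pool of day 1 was the highest, the groups overlapped, and its value is uncertain, since it is nearly identical to Hspa1a. Hspa2, Hspa12b, Hspa13 and Hspa14 were not called, with log2 fold changes of -0.30 to 0.18, but Hspa13, which encodes an Hsp70 of the ER, was lower with the day as a block (-0.30, adjusted p = 0.00704 by blocked edgeR and 0.15 without the block).

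The Bag and Hsp110 classes, which include exchange factors of Hsp70, held genes that differed among themselves. Of 5 Bag genes Bag1 and Bag6 rose and 0 fell, while of 3 Hsp110 genes none was called by edgeR (Hsph1 at an unadjusted p under 0.05). Bag1 (Entrez 12017, chromosome 4, 40936398 to 40948294) encodes an exchange factor with a ubiquitin-like domain that ties Hsc70 to the proteasome. Its level was 82.5, 70.1 and 69.98 CPM in mutant pools, against 54.8, 45.6 and 44.5 CPM in wild-type pools. The lowest mutant pool lay well above the highest wild-type pool, and the log2 fold change was 0.62 ± 0.12 (SE, edgeR adjusted p = 0.000907). The within-day log2 ratios were 0.59, 0.62 and 0.65, the narrowest range of the 6 genes that rose.

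Bag6 encodes a chaperone that guards membrane proteins before insertion and hands failed ones to degradation. It was at 30.4, 35.8 and 34.5 CPM in mutant pools and 22.9, 26.4 and 27.7 CPM in wild-type pools, with no overlap. The log2 fold change was 0.39 ± 0.12 (SE, edgeR adjusted p = 0.0239), lost in 7 of the 9 fits (up to 0.319, without day 2). Bag3, which couples Hsc70 to Hspb8, averaged 28.9 ± 2.17 CPM in mutant pools and 33.0 ± 3.57 CPM in wild-type pools (SD, n = 3 each; log2 fold change -0.19, adjusted p = 0.289 by edgeR and 0.0304 with the day as a block). Bag4 and Bag5 were at or below 1.2 CPM in every library. The most abundant Hsp110 gene, Hsph1, had 53.3, 51.1 and 48.8 CPM in mutant pools and 46.3, 41.9 and 34.9 CPM in wild-type pools. These did not overlap, yet the test was missed without the block (log2 fold change 0.32, adjusted p = 0.0688 by edgeR) and passed with it (adjusted p = 2.66e-05). Hspa4 and Hspa4l both had -0.15. Hspbp1, an exchange factor whose symbol fits the Hspb rule though it is no small heat shock protein, was at 1.14 ± 0.256 CPM in mutant pools and 1.77 ± 0.615 CPM in wild-type pools (log2 fold change -0.63, adjusted p = 0.113 by edgeR and 0.0139 with the block).

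The cytosolic Hsp90 genes went in opposite directions. Hsp90aa1 (Entrez 15519, chromosome 12, 110691036 to 110696395), the form known as stress-inducible, had 26.9, 28.8 and 26.3 CPM in mutant pools and 24.7, 19.5 and 16.5 CPM in wild-type pools. On day 1 the genotypes were close (within-day log2 ratio 0.12), and they lay apart on days 2 and 3 (0.56 and 0.66). Its log2 fold change was 0.44 ± 0.14 (SE, edgeR adjusted p = 0.0245; 0.322 without day 2). Hsp90ab1 (Entrez 15516, chromosome 17, 45567778 to 45573261), the constitutive form, had 48.8, 56.4 and 52.1 CPM in mutant pools and 69.5, 60.3 and 68.5 CPM in wild-type pools. All mutant pools were lower, by least on day 2 (-0.10 within that day). The log2 fold change was -0.34 ± 0.11 (SE, edgeR adjusted p = 0.0403; 0.319 without day 1).

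Per kilobase of gene length, Hsp90aa1 stood at 0.460 ± 0.0219 of the level of Hsp90ab1 in mutant pools and at 0.269 ± 0.0523 in wild-type pools (SD, n = 3 each). The lowest mutant ratio was 0.444 and the highest wild-type ratio 0.313. This ratio, and those of Bag1 to Hspa8 and of Hspb8 to Bag3, were picked after the values were seen and are given without a test. Hsp90b1, the Hsp90 of the ER, averaged 7.81 ± 1.02 CPM in mutant pools and 8.38 ± 1.41 CPM in wild-type pools (log2 fold change -0.10, adjusted p = 0.711 by edgeR). Between Bag1 and Hspa8 the ratio per kilobase was 1.79 to 2.16 in mutant and 0.918 to 0.991 in wild-type pools. In mutant platelets Bag1 thus stood above Hspa8 per kilobase, and in wild-type platelets just below it.

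**Figure D2:**
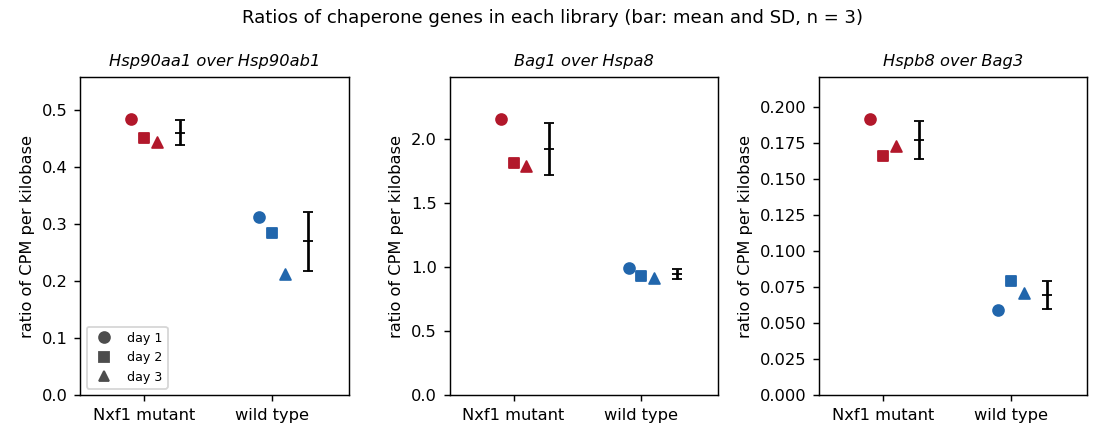
Ratio of CPM per kilobase for 3 pairs of chaperone genes in each library, on linear axes from 0, with mutant pools on the left, 1 marker shape per day and the mean with SD (n = 3) beside the points. In each pair every mutant ratio lies above every wild-type ratio, and for Hspb8 over Bag3 they run from 0.166 to 0.192 in mutant and from 0.0593 to 0.0789 in wild-type pools.

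Small heat shock proteins were scarce, and one of them had the largest rise of all members. Hspb8 (Entrez 80888, chromosome 5, 116408491 to 116422864) encodes a small heat shock protein that works with Bag3 and Hsc70 to send clumped proteins to autophagy. It had 4.10, 3.43 and 3.19 CPM in mutant pools, against 1.43, 1.95 and 1.42 CPM in wild-type pools. The lowest mutant pool was above the highest wild-type pool, and these levels rest on 84 to 110 counts in mutant and 37 to 47 counts in wild-type libraries. Its log2 fold change was 1.16 ± 0.21 (SE, edgeR adjusted p = 0.000379), a fold of 2.24, with within-day log2 ratios of 1.25, 0.68 and 0.94. Its partner gene Bag3 was not called without the block and was lower with it, as given above. Hspb6 was at 0.420 to 0.580 CPM over all 6 libraries, and Hspb11, which despite its symbol encodes a subunit of the intraflagellar transport machinery, was at 0.522 to 0.858 CPM in mutant pools and 0.734 to 1.08 CPM in wild-type pools. Neither was called.

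J proteins made up 32 members, of which 2 rose, 3 fell and 27 were not called. The called share was 15.6%, against 22.1% of all genes. With the block, 10 of all 32 were higher and 5 lower. Without it, the calls differed by type. Of 9 type B genes Dnajb2 and Dnajb14 rose and 0 fell, of 4 type A genes Dnaja1 fell, and of 19 type C genes Dnajc9 and Dnajc30 fell. These were 22.2% of type B, 1 of 4 type A and 10.5% of type C genes. Median log2 fold changes were 0.24 for type B, -0.03 for type A and -0.21 for type C. The difference between types was not tested.

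Dnajb2 (Entrez 56812, chromosome 1, 75236395 to 75245692), whose product carries ubiquitin-interacting motifs and steers Hsc70 clients to the proteasome, had the highest mean CPM of all members. It stood at 111.4, 106.1 and 101.3 CPM in mutant pools and 77.5, 71.4 and 61.2 CPM in wild-type pools. Every mutant pool was above every wild-type pool, with a log2 fold change of 0.60 ± 0.12 (SE, edgeR adjusted p = 0.000891). Dnajb14, a J protein of the ER membrane, had 5.55, 5.35 and 3.82 CPM in mutant pools and 3.56, 3.53 and 3.04 CPM in wild-type pools. The mutant pool of day 3 was only just above the wild-type pools, and the log2 fold change was 0.54 ± 0.18 (SE, edgeR adjusted p = 0.0367; 0.276 without day 2).

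Dnaja1, a cytosolic J protein of Hsc70, was at 4.92, 4.45 and 4.01 CPM in mutant pools and 7.23, 6.61 and 5.17 CPM in wild-type pools. Its log2 fold change was -0.50 ± 0.17 (SE, edgeR adjusted p = 0.0365; 0.187 without day 2). Its exons share 608 bases with those of Smu1 on the other strand, and Smu1 was higher in the mutant (log2 fold change 0.46), so reads of both genes cannot be told apart there. Dnaja2, the most abundant type A gene per kilobase, was level at 18.8 ± 0.296 CPM in mutant pools and 19.0 ± 0.919 CPM in wild-type pools (log2 fold change -0.02, adjusted p = 0.94 by edgeR).

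Dnajc9, known in human cells as a co-chaperone that also binds histones H3 and H4, had 4.18, 6.004 and 7.12 CPM in mutant pools and 7.42, 7.73 and 10.3 CPM in wild-type pools. Its highest mutant pool came close to its lowest wild-type pool, and the log2 fold change was -0.56 ± 0.19 (SE, edgeR adjusted p = 0.0358; 0.161 without wild-type replicate 3). Dnajc30, a mitochondrial J protein linked to complex I in humans, had the largest fall and the fewest reads of the called members, 10 to 13 counts in mutant and 19 to 33 in wild-type libraries. These gave 0.373, 0.531 and 0.445 CPM in mutant pools and 0.734, 0.873 and 1.07 CPM in wild-type pools, and a log2 fold change of -0.996 ± 0.31 (SE, edgeR adjusted p = 0.0268; 0.143 without day 3). The gene has 1 exon and shares 436 exonic bases with Bud23 on the other strand (log2 fold change -0.09), so its value is uncertain.

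Other abundant J protein genes were not called. Dnajc7, which also holds Hsp90, averaged 60.9 ± 4.61 CPM in mutant pools and 70.3 ± 7.39 CPM in wild-type pools (log2 fold change -0.21, adjusted p = 0.238 by edgeR and 0.00958 with the block). Dnajc17, of which the yeast relative acts in splicing, averaged 27.3 ± 3.63 CPM in mutant pools and 23.3 ± 4.19 CPM in wild-type pools (0.23, adjusted p = 0.263 by edgeR and 0.0066 with the block). With the block only, Dnajb4 (0.27), Dnajb9 (0.24), Dnajb11 (0.42) and the synaptic vesicle chaperone gene Dnajc5 (0.25) were higher, with adjusted p of 0.000541, 0.00324, 5.44e-05 and 0.00515 by blocked edgeR. The remaining ones called only with the block were Dnaja4, Dnajc10 and Dnajc14, which were higher, and Dnajc28, which was lower. Exons of Dnaja4 share 1581 bases with Wdr61, and those of Dnajc14 share 1307 with Ormdl2, Sarnp and Tmem198b. Those of Dnajc7 share 441 with Cnp and Nkiras2, and those of Dnajc17 share 108 with Zfyve19. The values of Dnaja4, Dnajc14, Dnajc7 and Dnajc17 are uncertain for that reason.

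**Figure D3:**
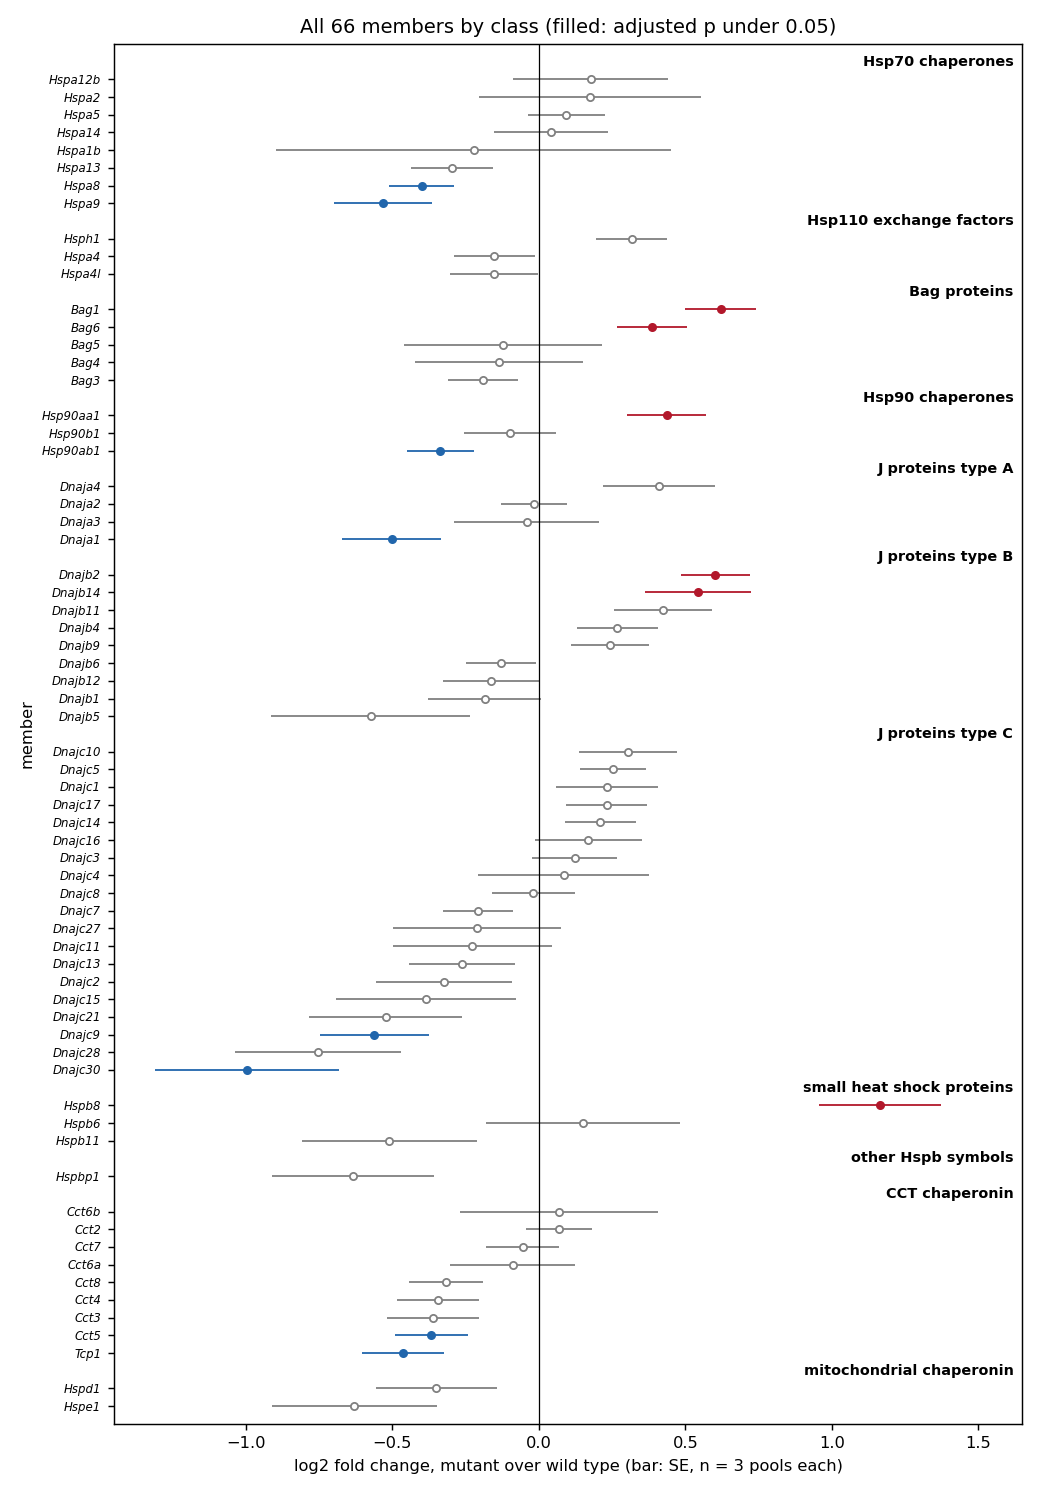
Log2 fold change of mutant over wild type for all 66 members, grouped by class, with SE bars (n = 3 pools each). Filled points passed an adjusted p of 0.05 in edgeR (red higher, blue lower), and open grey points did not. The called rises sit in the Bag, Hsp90, type B and small heat shock protein classes, and the called falls in the Hsp70, Hsp90, type A, type C and CCT classes.

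The CCT chaperonin was represented by all 8 ring subunit genes and by Cct6b. Among the ring subunits Tcp1 and Cct5 fell and 0 rose. Tcp1 (Entrez 21454, chromosome 17, 12916329 to 12925067), subunit 1 of the ring, had 7.57, 7.72 and 8.38 CPM in mutant pools and 9.86, 10.1 and 12.6 CPM in wild-type pools. No pools overlapped, and the log2 fold change was -0.46 ± 0.14 (SE, edgeR adjusted p = 0.0218; 0.104 without day 2). Its exons share 141 bases with Mrpl18 on the other strand (log2 fold change 0.08). Cct5 (Entrez 12465, chromosome 15, 31590800 to 31601846) had 10.8, 11.3 and 12.1 CPM in mutant pools and 14.1, 13.8 and 15.99 CPM in wild-type pools, again without overlap. Its log2 fold change was -0.37 ± 0.12 (SE, edgeR adjusted p = 0.0397; 0.172 without day 1).

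Cct3, Cct4 and Cct8 had log2 fold changes of -0.36, -0.34 and -0.32, with adjusted p of 0.108, 0.0887 and 0.0787 by edgeR, and passed in edgeR with the day as a block (0.00351, 0.00108 and 0.000797). With that block in DESeq2 the adjusted p was 0.0958 for Cct3, 0.052 for Cct4 and 0.0334 for Cct8. Cct8 shares 192 exonic bases with Usp16 on the other strand. By contrast Cct2, the most abundant subunit gene, was at 19.6, 19.97 and 22.1 CPM in mutant pools and 19.4, 19.7 and 19.7 CPM in wild-type pools (0.07, adjusted p = 0.725 by edgeR). Its small difference turned negative when scaled by library size alone (-0.013) and when genes averaging under 10 CPM were left out (-0.10). Cct7 (-0.05), Cct6a (-0.09) and Cct6b, a form known from testis (0.07), were not called either. Cct6a shares 452 exonic bases with Psph on the other strand, and Psph was higher in the mutant (0.46, adjusted p = 0.041 by edgeR), so the value of Cct6a is uncertain. Summed over the 8 ring subunits, the level was 80.8, 84.9 and 95.3 CPM in mutant pools and 96.2, 96.6 and 109.0 CPM in wild-type pools. These do not overlap, but the highest mutant pool lay only just below the lowest wild-type pool. The subunits form rings in equal number, yet per kilobase their genes ranged from 2.06 CPM in Cct6a to 10.2 CPM in Cct2.

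The mitochondrial chaperonin consists of Hsp60 (Hspd1) and its lid Hsp10 (Hspe1). Hspd1 averaged 2.53 ± 0.423 CPM in mutant pools and 3.22 ± 0.688 CPM in wild-type pools (SD, n = 3 each; log2 fold change -0.35, adjusted p = 0.258 by edgeR), and the groups overlapped. Hspe1 had 0.522, 0.817 and 0.705 CPM in mutant pools and 1.04, 1.08 and 1.03 CPM in wild-type pools, without overlap, but it rested on 14 to 32 counts a library and did not pass (-0.63, adjusted p = 0.121 by edgeR, unadjusted p = 0.0365, and 0.0601 with the block). The annotation names 5 pseudogenes of Hspd1 and 6 of Hspe1, and the genes share 112 exonic bases on opposite strands, so both values are uncertain. It also names 1 pseudogene each for the called Hspa9, Tcp1 and Dnaja1, and for Cct3 and Dnajb6. Pseudogenes not named after their gene were not counted. Compartments were assigned to some members after the values were seen. The 7 members placed in mitochondria (Hspa9, Hspd1, Hspe1, Dnaja3, Dnajc11, Dnajc15 and Dnajc30) all had negative log2 fold changes, with a median of -0.39 and 2 called. In all genes tested, 5337 of 9822 had a negative value. Among genes averaging under 5 CPM, as all 7 but Hspa9 do, 3584 of 5555 had one, and at 5 CPM or more 1753 of 4267. Of 10 members placed in the ER, 7 had positive values, with a median of 0.18 and only Dnajb14 called. Neither list is complete. J proteins given no compartment include Dnajc4 (0.08), Dnajc28 (-0.75), Dnajc14 (0.21) and Dnajc16 (0.17), so the shared sign holds only for the 7 listed. This grouping supports no test.

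**Figure D4:**
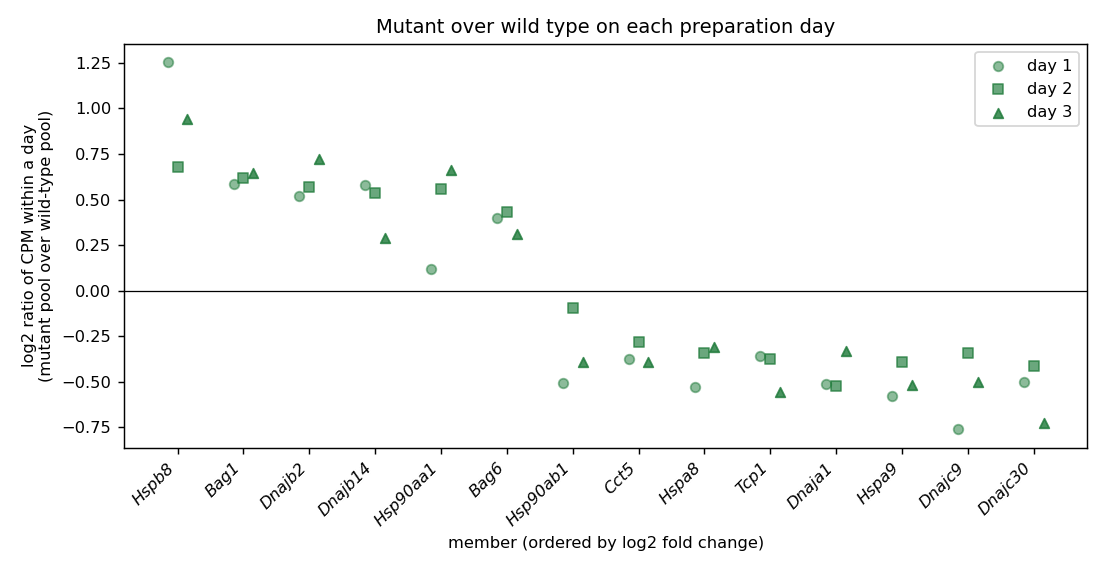
Log2 ratio of the mutant over the wild-type pool within each preparation day for the 14 called members, with 1 marker shape per day and a line at 0. All points of the 6 genes on the left are above 0 and all points of the 8 genes on the right are below it, with the smallest sizes for Hsp90ab1 on day 2 (-0.10) and Hsp90aa1 on day 1 (0.12).

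By length-adjusted level in the mean over all 6 libraries, Bag1 came first (45.4 CPM per kilobase) and Hspa8 next (33.2). The order differed by genotype, with Bag1 at 55.0, Dnajb2 at 33.2 and Hspa8 at 28.6 CPM per kilobase in mutant pools, against 35.8, 21.9 and 37.8 in wild-type pools. Further down in the mean over all libraries came Dnajc7 (28.4 CPM per kilobase), Dnajb2 (27.5) and Dnajc17 (25.1). Chaperone mRNA was modest in these platelets. All 66 members together held 0.0919 ± 0.00378% of counts in mutant and 0.0927 ± 0.00682% of counts in wild-type libraries (SD, n = 3 each). This share is without TMM scaling, and the difference was smaller than the spread between pools. In TMM-scaled CPM the members summed to 968.2, 952.6 and 911.5 in mutant pools and 953.8, 907.1 and 843.7 in wild-type pools. That sum was higher in the mutant on each day, but the groups overlapped. Only 2 members were among the top 10% of genes by CPM per kilobase. In CPM, 25 members averaged at least 10 and 13 averaged under 1, and the 5 with the highest means held 37.3% of the summed level of all members.

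The heat shock factor Hsf1 drives many chaperone genes from heat shock elements, in which GAA and TTC units alternate. Motifs GAANNTTC and TTCNNGAA, each its own reverse complement, were searched in RefSeq promoters (GRCm38.p6, 250 bases before to 50 after a start). Promoters were given for 55 of 66 members, without Hspa8, Hsp90aa1 and Hsp90ab1. At least 1 match was found for 16 of 55 members (29.1%), against 14.2% of 7606 genes of the count tables. Among called members with a promoter, 1 of 5 that rose (Hspb8, where the match begins 3 bases into the transcript) and 2 of 4 that fell (Dnaja1 and Cct5) had one. The stretches below are examples from the 16 genes, with the motifs in capitals, from fallen genes, from some of the genes higher only with the block, and from the divergent pair Hspe1 and Hspd1. Each lies before 1 of the gene's annotated starts, 5′ to 3′ on its strand, and for Hsph1, Dnaja4 and Dnajb4 that start is inside the gene, downstream of its outermost one.
Dnaja1 (chr4:40722333-40722362, +): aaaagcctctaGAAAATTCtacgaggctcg
Cct5 (chr15:31601862-31601891, -): acagcggccgaTTCCAGAAgctactctgcg
Hsph1 (chr5:149636351-149636380, -): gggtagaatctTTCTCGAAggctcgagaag
Dnaja4 (chr9:54699458-54699487, +): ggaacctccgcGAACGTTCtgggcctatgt
Dnajb4 (chr3:152193846-152193875, -): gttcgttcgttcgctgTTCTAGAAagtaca
Hspe1 (chr1:55088053-55088082, +): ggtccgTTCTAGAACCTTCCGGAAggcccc
In the Hspe1 stretch 3 overlapping matches form one run, which also lies in an exon of an Hspd1 transcript on the other strand and in the Hspd1 promoter window. The Cct5 stretch lies in an exon of Fam173b on the other strand, and the Hsph1 and Dnaja1 stretches lie in exons of other transcripts of the same genes in GENCODE. Genes with a match thus include some that fell, some that rose and some not called, and a match describes these letters, not binding.

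Partners of the chaperones were read from lists of other genes. Of 4 listed heat shock regulators in the tables, Hsf1 itself was at 1.86, 1.92 and 2.15 CPM in mutant pools and 1.86, 2.16 and 2.84 CPM in wild-type pools (log2 fold change -0.22, adjusted p = 0.532 by edgeR). Hsf2bp, which binds the factor HSF2, was at 2.76, 2.29 and 1.85 CPM in mutant pools and 5.68, 6.07 and 4.62 CPM in wild-type pools (-1.24 ± 0.19 SE, adjusted p = 9.55e-05 by edgeR). All its mutant pools were lower, and its exons share 54 bases with Rrp1b on the other strand. The elongation factor gene Eef1a1 was lower too (-0.35, adjusted p = 0.0306 by edgeR; 0.216 without day 1), and 0 of the 4 were higher.

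Among 28 cochaperone genes counted, 3 rose and 1 fell. The one that fell was Stip1, whose product Hop bridges Hsp70 and Hsp90. Stip1 had 13.9, 14.3 and 14.8 CPM in mutant pools and 25.3, 28.9 and 20.9 CPM in wild-type pools. The mutant pools were close together and all lower, with a log2 fold change of -0.80 ± 0.13 (SE, edgeR adjusted p = 0.000155), called in all 9 fits. Sgta, which passes membrane proteins to Bag6, had 22.7, 24.5 and 21.0 CPM in mutant pools and 13.99, 17.4 and 14.1 CPM in wild-type pools (0.58, adjusted p = 0.00198 by edgeR; 0.0643 without day 1), so it rose as Bag6 did. Fkbp8, an Hsp90-binding protein of the mitochondrial outer membrane, was higher as well (0.46, adjusted p = 0.00744 by edgeR; 0.171 without day 1, 224 exonic bases shared with Kxd1).

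Prefoldin hands new chains to CCT, and of 10 listed genes of its subunits and of related proteins Vbp1 fell and 0 rose. Vbp1 had 18.4, 17.0 and 15.2 CPM in mutant pools and 23.3, 26.02 and 22.6 CPM in wild-type pools (-0.50 ± 0.12 SE, adjusted p = 0.00432 by edgeR; 0.0882 without day 2). Of 19 genes of ER folding and the unfolded protein response, the stress sensor gene Atf6 (0.41, adjusted p = 0.0336 by edgeR; 0.216 without day 2) and Herpud1, whose product helps clear failed ER proteins (0.41, adjusted p = 0.0487 by edgeR; 0.455 without mutant replicate 1) rose. Ddit3, which encodes the stress factor CHOP, fell (-0.89, adjusted p = 1.9e-05 by edgeR; 68 exonic bases shared with Mars1). Of 8 genes of mitochondrial quality control the unfoldase gene Clpx (-0.84, adjusted p = 0.0241 by edgeR) and the import receptor gene Tomm20 (-0.59, adjusted p = 0.0439 by edgeR) fell and 0 rose, at adjusted p of 0.126 and 0.371 without day 2. Called in either direction were thus 2 of 4 genes of the regulator list (Hsf2bp and Eef1a1), 4 of 28 cochaperones (14.3%) and 1 of 10 genes of the prefoldin list. Hsf1 and Hsbp1 were not called without the block, and Hsf2 and Hsf4 were not in the count tables. Of 19 ER genes 3 were called (15.8%), and of 8 mitochondrial genes 2. The share of all genes was 22.1%. With the day as a block edgeR called 1 regulator higher (Hsbp1) and 2 lower, and 4 cochaperones higher and 4 lower. Of the prefoldin list it called 2 genes higher (Txndc9 and Pdrg1) and 3 lower (Vbp1, Pfdn6 and Pdcl3). Txndc9, Pdrg1 and Pdcl3 do not encode subunits of prefoldin itself. Of ER genes 5 were higher and 3 lower with the block, and of mitochondrial genes 2 were higher (Clpb and Htra2) and 2 lower. Among all genes the block called 22.0% higher and 18.0% lower. Summed B cell markers, lower in every mutant pool, moved with the genes that fell. Summed platelet markers and Lyz2, higher in every mutant pool, moved with those that rose. Single platelet markers differed, with 4 of 10 called higher, Gp9 lower (-0.40, adjusted p = 0.0186 by edgeR) and the others not called. The part of these markers in the results was not tested.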

How the data were processed

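Platelet polyA RNA from 3 mutant and 3 wild-type pools was sequenced, and the authors deposited whole counts for each gene beside its length, per the file headers. CASAVA 1.8.2, Subread and featureCounts with mm10 are named in the submitters' processing notes. Their settings, strand use and handling of multiply matched reads: not given in the sources used here. TruSeq RNA v2, the kit per the labels, is unstranded. Genes were named by Entrez identifier from RefSeq (GRCm38.p6, 9636 of 9822), exons came from GENCODE, and 186 genes had no name.

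Counts were tested in edgeR 4.0.16 (R 4.3.3; TMM, robust quasi-likelihood, genotype as only term, two-sided), with adjustment over all 9822 genes. filterByExpr removed 0 genes. DESeq2 1.42.0 and limma 3.58.1 (voom) were alternatives. SE is the log2 fold change divided by the root of F. Within-day ratios add 0.5 CPM. The day pairs the libraries, per the labels' batch numbers: deviations from group means correlated at 0.431, 0.271 and 0.481 within days and at most -0.0104 between days. The biological coefficient of variation was 14.2%, and 5.73% with the day as a block, whose p-values rest largely on variance shared across genes. Libraries of 1 group always differed by more than sampling noise (mean chi-square per gene at least 14.5). The fit was tested on simulated data. The animals per pool are not stated in these sources, and p-values cover only the spread of pools.

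The members, lists and tests were chosen with earlier results of these data known. Named were all called members, the most abundant of each class and overall by CPM per kilobase, up to 8 called only with the block, and up to 3 called partners per list; other members were described beside them. Some results that this rule takes are not reported here. Protein sequences were not used here.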

Additional observations from a re-analysis of the deposited data

How the results depend on the processing

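Of 6 members called higher and 8 called lower, numbers stayed within 1.5-fold with relative log expression or upper-quartile factors, with TMM without the 10 most abundant genes, by limma-voom, without a low-count filter and by DESeq2 with the replicate block (9 and 9). With the day as a replicate block, edgeR called 15 higher and 16 lower. With library size alone 5 were lower, and the median log2 fold change of the members was -0.21, with -0.13 over all genes. By DESeq2 5 were lower. Of the 25 members averaging at least 10 CPM, 2 were higher and 9 lower when fitted without genes below that level. Among the same members the main fit called Bag1, Dnajb2, Hsp90aa1 and Bag6 higher and only Hspa8, Hsp90ab1 and Cct5 lower. The fit without those genes gave Bag1 a log2 fold change of 0.45, against 0.62, and Dnaja2 -0.18, against -0.02. The balance of higher and lower calls thus varied with the genes kept for scaling. At an adjusted p of 0.01, 3 were higher and 0 lower by edgeR, (10 and 15 at an unadjusted p under 0.05), and with a fold over 1.5 added to 0.05, 3 were higher and 1 lower. Over fits without 1 library or day the count was 3 to 6 higher and 0 to 10 lower, and the median was -0.207 to -0.0556, against -0.13 in all libraries. The 14 calls were all shared by limma-voom and the edgeR block, 10 by DESeq2 and 7 with library size alone. The fit without genes under 10 CPM, which covered 25 members, shared 5. Cct2 had -0.0133 when scaled by library size alone and -0.10 when genes averaging under 10 CPM were left out, against 0.07; the cause was not tested. With the replicate block in DESeq2, Dnajb14 had an adjusted p of 0.0568. No called member changed sign under these settings. Members with 10 to 50 counts a library, such as Dnajc30, Hspe1 and Hspb6, allow only large differences to be seen.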
